A study of Mus musculus with 2 samples.

Results

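MicroRNA genes are the subject here: all 2054 autosomal genes of type miRNA in the GENCODE M21 annotation of the mouse, out of 2202 on all chromosomes, each taken with 1 kb on either side. The rule that selects them uses the annotation and no measured value. A gene was called open when a peak of each library touched its window by at least 1 bp, and it was counted as near a TSS when its body lay within 1 kb of an annotated transcript start of a gene for a protein or for a long noncoding RNA (lncRNA). There were 421 genes near such a start and 1633 away from any. Windows of neighbouring miRNA genes overlap, and merging them left 1777 loci.

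Open chromatin was mapped by DNase-seq, in which the nuclease DNase I cuts accessible DNA, in 2 libraries of hippocampal tissue from female mice aged 25 days. The mice were B6CASTF1/J, a first-generation hybrid of C57BL/6J and the wild-derived CAST/EiJ strain, without further treatment or allele in the labels. The tissue type is given as a layer of hippocampus, with no layer named, and the libraries are labelled as biological replicates 1 and 2 with the same donor entry, so differences between them may in part be technical. They form 1 group, so no difference between conditions was tested, and every count describes these 2 libraries.

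A miRNA is cut from a hairpin within a longer primary transcript, first by Drosha in the nucleus and then by Dicer in the cytoplasm, and it directs the repression of messenger RNAs that pair with its seed, the bases near its 5′ end. Many hairpins lie in introns of protein-coding or lncRNA genes and share the promoter of that host gene, which can be many kilobases away, whereas others have transcripts of their own. In the hippocampus, miR-124 and miR-9 are known as neuronal and neural miRNAs, and miR-132 and miR-212 as products of a locus that responds to neuronal activity through the transcription factor CREB.

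The mature sequences of several brain miRNAs whose genes were open are shown because they define families that the counts below group, with the seed, bases 2 to 8, in capitals. miR-124 is named only. Sequences are those of RefSeq on GRCm38.p6, which gave a mature sequence for 926 of the 2054 genes and for 116 of the 213 open ones.
mmu-miR-132-3p: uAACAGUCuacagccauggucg
mmu-miR-212-3p: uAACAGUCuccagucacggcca
mmu-miR-9-5p: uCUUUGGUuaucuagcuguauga
mmu-miR-129-5p: cUUUUUGCggucugggcuugc
mmu-miR-34b-3p: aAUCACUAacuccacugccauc
mmu-miR-34c-3p: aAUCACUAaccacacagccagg
mmu-miR-191-5p: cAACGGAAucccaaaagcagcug
mmu-miR-219a-5p: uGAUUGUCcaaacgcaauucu
mmu-let-7i-5p: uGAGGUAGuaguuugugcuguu
mmu-miR-125b-5p: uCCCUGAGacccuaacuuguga
miR-132-3p and miR-212-3p carry 1 seed, AACAGUC, and their genes share 1 open locus. miR-34b-3p and miR-34c-3p likewise share the seed AUCACUA and 1 open locus.

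The open regions themselves are shown for 4 of these genes, as the connected stretch of overlapping peaks of both libraries that had the highest combined rank of signal in the window. Capitals mark footprints found in both libraries, which are short stretches protected from cutting inside open DNA. Each sequence is written in the direction of the miRNA, 5′ to 3′, on GRCm38 (mm10).
Mir132 region, chr11:75173581-75173870, plus strand: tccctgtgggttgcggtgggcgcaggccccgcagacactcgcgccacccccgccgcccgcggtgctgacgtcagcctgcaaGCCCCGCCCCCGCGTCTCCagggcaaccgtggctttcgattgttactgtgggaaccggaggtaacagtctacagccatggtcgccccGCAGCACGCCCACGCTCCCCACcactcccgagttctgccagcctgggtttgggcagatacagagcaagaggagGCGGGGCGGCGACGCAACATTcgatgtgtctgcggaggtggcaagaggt
Mir9-3 region, chr7:79504781-79505000, plus strand: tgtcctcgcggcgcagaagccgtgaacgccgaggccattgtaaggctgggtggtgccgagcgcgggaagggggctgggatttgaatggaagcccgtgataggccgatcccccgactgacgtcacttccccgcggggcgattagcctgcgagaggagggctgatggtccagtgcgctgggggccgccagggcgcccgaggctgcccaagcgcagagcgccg
Mir129-1 region, chr6:29023361-29023560, plus strand: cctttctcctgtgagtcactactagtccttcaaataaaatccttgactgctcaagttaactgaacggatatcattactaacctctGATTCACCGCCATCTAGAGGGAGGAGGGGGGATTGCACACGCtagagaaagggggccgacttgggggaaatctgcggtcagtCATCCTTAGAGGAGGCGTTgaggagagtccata
Mirlet7i region, chr10:122985881-122986100, minus strand: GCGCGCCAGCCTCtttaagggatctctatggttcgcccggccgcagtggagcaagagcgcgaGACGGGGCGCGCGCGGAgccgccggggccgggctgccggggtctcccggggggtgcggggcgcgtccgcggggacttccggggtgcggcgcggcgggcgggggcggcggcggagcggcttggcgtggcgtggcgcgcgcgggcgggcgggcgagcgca
The Mir132 region held the whole hairpin, at bases 102 to 167 of the 290 printed, and 3 shared footprints. It held 27 CpG dinucleotides at 67.6% G and C. The Mir9-3 region lay on the 5′ side of its hairpin and had no shared footprint, while the Mir129-1 region and the Mirlet7i region had 2 each.

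Replicate 1 had 59877 autosomal peaks in the stricter of its deposited lists and replicate 2 had 49077, of which 454 and 341 lay in miRNA windows, and overlapping peaks of both made 36132 shared regions. The deposited signal of a shared region was higher in replicate 1 at 34883 of them, so signals are given per library as deposited and are not averaged. Promoters of 5 of 8 genes of forebrain neurons had peaks of both libraries within 500 bp of the same start, namely Snap25, Syt1, Emx1, Neurod2 and Neurod6. Rbfox3 had peaks of both libraries but at different starts, Prox1 had one in replicate 2 and Slc17a7 in replicate 1. Sequencing depth was unknown from the files used here, so intervals for counting error could not be computed.

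Few miRNA genes had open chromatin within 1 kb. In both libraries 213 of 2054 were open, or 10.4%, against 2.98% of consecutive 2 kb tiles of the autosomes. Taken by itself, replicate 1 had a peak at 268 genes and replicate 2 at 236, the 213 included in each. Only in replicate 1 had 55 genes a peak, and only in replicate 2 had 23. The longer peak lists, which reach down to a false discovery rate of 0.05 where the stricter ones stop at 0.001, gave 276 genes, or 13.4%, against 4.85% of tiles. At 1660 genes neither longer list had any peak. The open genes fell into 202 of the 1777 loci.

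The position of the hairpin relative to annotated starts separated the open genes from the others. Near a TSS 153 of 421 miRNA genes were open, or 36.3%, against 28.5% of snoRNA and snRNA genes near a TSS. Away from any TSS 60 of 1633 were open, or 3.67%, against 1.79% of tiles away from any TSS and 3.02% of snoRNA and snRNA genes away from a TSS. In the longer lists 104 genes away from a TSS were open, or 6.37%, against 3.41% of such tiles. The share away from a TSS was thus close to that of other small RNA genes in the same kind of place.

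The kind of start mattered for the count. Of the miRNA genes near a protein-coding start 144 of 345 were open, or 41.7%, against 52.4% of equally wide windows around protein-coding gene starts. Of those near a lncRNA start only, 9 of 76 were open, or 11.8%, against 21.4% of windows around lncRNA gene starts. For either kind of start, these shares of miRNA windows were lower than those of the windows around gene starts. The shares are not like for like, since miRNA genes counted as near any annotated transcript start and the compared windows lay around gene starts. With basic transcripts only, 143 of 260 miRNA genes near a start of either kind were open, or 55.0%. The direction of the gap may therefore depend on which starts are counted.

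**Figure D1:**
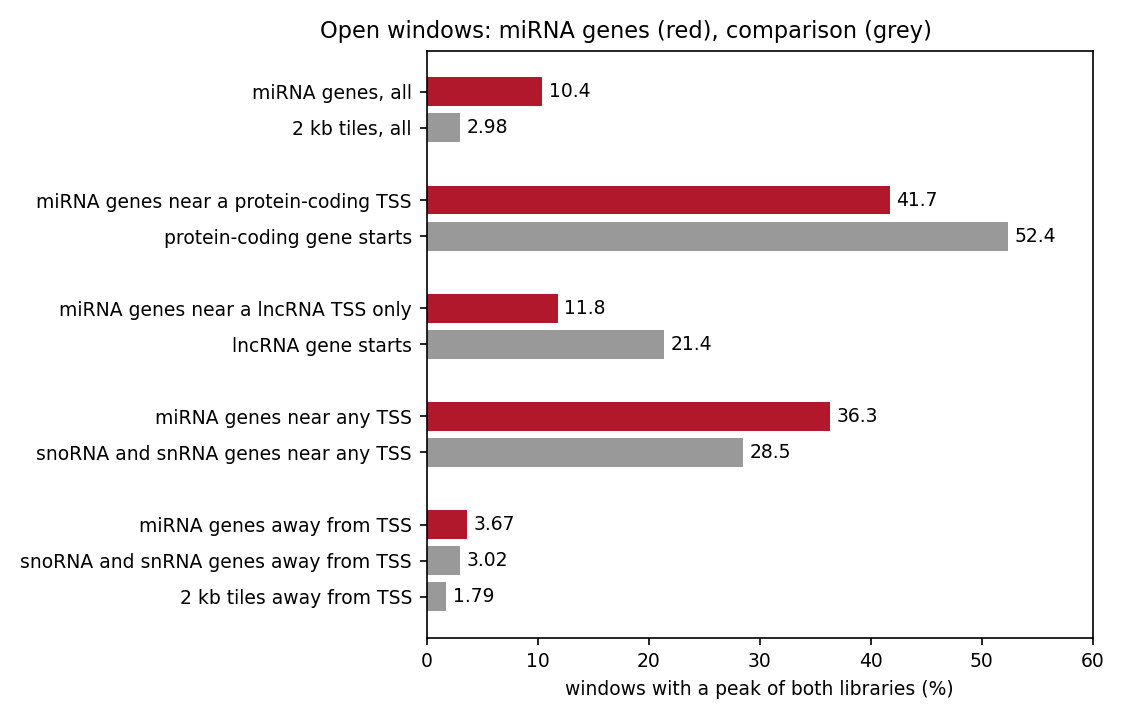
Percentage of windows with a peak of both libraries (horizontal axis) for groups of miRNA genes (red) and, under each, the windows they are set against (grey); each bar is 1 share, with no error bar because there is 1 group of 2 libraries. The 10.4% of all miRNA genes is made up of 36.3% near a TSS and 3.67% away from any TSS.

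CpG content of the window went with openness. Genes were split into 4 equal groups by the observed to expected CpG ratio of their windows, and in the CpG-richest group 181 of 514 genes were open, or 35.2%, while the other groups, from CpG-poor to CpG-rich, had 1.75%, 1.17% and 3.31%. Near a TSS the richest group reached 143 of 232 genes, or 61.6%. Away from any TSS it reached 38 of 282, or 13.5%, against 1.67% in the poorest group there. CpG-rich windows away from annotated starts were thus open more often than such genes as a whole, at 3.67%. CpG content and position near a start were not separated further.

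Peaks touched fewer hairpins than whole windows, which each hold the hairpin and span about 2090 bp. Whole windows were open at 10.4% of genes, against 2.98% of 2 kb tiles. Peaks of both libraries touched the hairpin itself, by at least 1 bp, at 66 genes, or 3.21%, against 0.4% of 90 bp tiles, which are about as long as a hairpin. At 3 genes the peaks lay mostly on the hairpin, a rule that peaks much wider than a hairpin cannot meet. The shared regions of open genes had a median width of 280 bp. Of the 66 genes 54 lay near a TSS and 12 away from one. Near a TSS the share of genes with a shared region was highest in both 100 bp bins from -200 to 0 bp of the hairpin's 5′ end, at 18.1% each, and its median beyond 2 kb was 1.66%. Away from any TSS the first 100 bp from the hairpin's 5′ end had 0.98%, against a median of 0.888% in bins beyond 2 kb. Within 1 kb the bins ranged from 0.306% to 0.98%. These genes have no annotated start within 1 kb by definition, while the outer bins may hold one. The comparison therefore cannot say whether the hairpins stand out from their surroundings.

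More genes had an open region on the 5′ side of the hairpin than on the 3′ side, with a smaller gap where no same-strand host was present. Away from any TSS 202 of 1633 genes, or 12.4%, had a shared region in the 5 kb on the 5′ side, and 146, or 8.94%, in the 5 kb on the 3′ side. Among genes inside a host gene on the same strand the values were 14.9% and 8.96% of 781, and among those without such a host 10.1% and 8.92% of 852. The start of a same-strand host lies on the 5′ side by definition and may fall within these 5 kb. The difference between the sides was not tested.

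**Figure D2:**
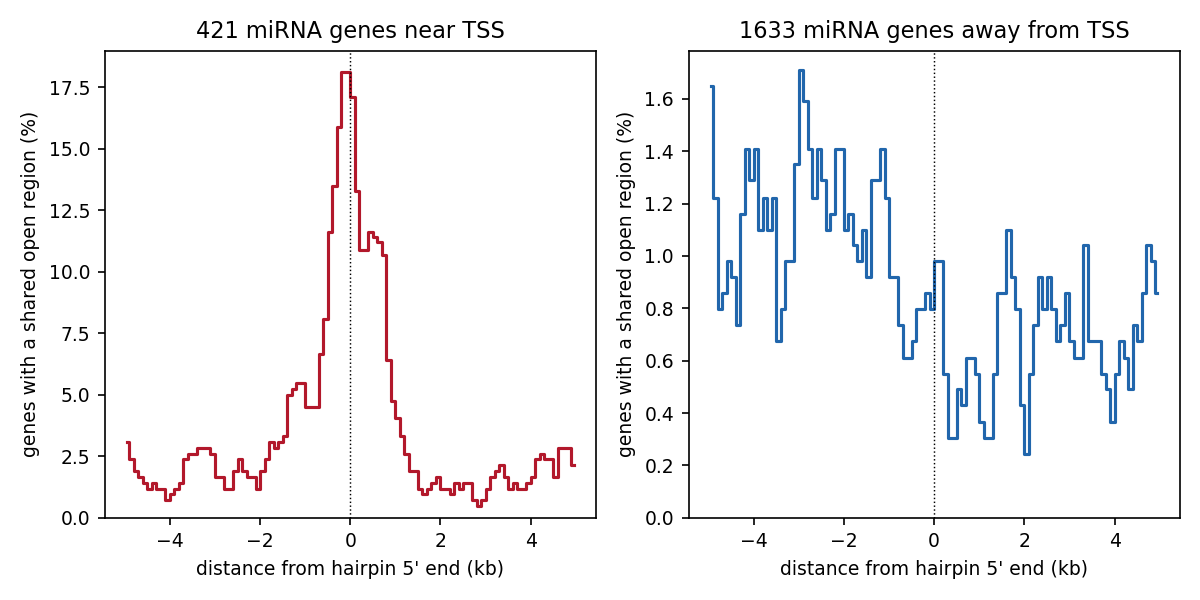
Percentage of miRNA genes with a shared open region in each 100 bp bin (vertical axes, which differ in scale), by distance in kb from the 5′ end of the hairpin in the direction of the gene (horizontal axes, 5′ side negative), for genes near a TSS (left) and away from any (right). The left curve reaches 18.1% just before the hairpin, and the right one has no such summit and stands at 0.98% on the hairpin.

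Footprints followed the peaks. A footprint shared by both libraries lay in the windows of 196 genes, or 9.54%, against 2.89% of 2 kb tiles. Near a TSS the number was 140, or 33.3%, and away from one 56, or 3.43%. Among open genes 180 of 213 had a shared footprint, and at 33 of them one touched the hairpin.

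Host genes of miRNAs often had an open promoter. Of the miRNA genes away from a TSS that lay in a protein-coding gene on the same strand and were not open, 549 of 663 had a host whose promoter was open, meaning peaks of both libraries within 500 bp of the same start. That is 82.8%, and among those that were open it was 15 of 16, or 93.8%. Counted once each, 424 of 531 protein-coding hosts had an open promoter, or 79.8%, against 55.2% of all protein-coding genes. For lncRNA hosts the share was 28 of 72, or 38.9%, against 19.0% of all lncRNA genes. Hosts had more annotated starts, with a median of 5 against 3 for all protein-coding genes. Among genes with 2 to 4 starts 73.9% of hosts were open, against 47.5% of all, and among those with 5 or more starts 86.4% against 81.5%.

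The strongest regions near a TSS lay at or in protein-coding genes. The 8 highest-ranked genes there had signals from 7.04 to 11.4 in replicate 1 and from 3.05 to 4.43 in replicate 2, and all 8 had shared footprints. Mir1938, in Ifrd1, led with 11.4 and 3.91 in replicates 1 and 2 and 7 shared footprints. Mir5627, at the start of Dnajb9, which encodes a chaperone of the endoplasmic reticulum, had 8.83 and 4.43. Mir707 in Akt1s1, an inhibitor of the mTORC1 kinase complex, had 8.98 and 3.74. The other genes were Gm44349 at Elp5 of the Elongator complex, Gm44364 at the histone gene H2afj, Mir1893 in Epc1, whose own promoter peaks were weaker, Mir5133 in Glce, an enzyme of heparan sulphate synthesis, and Mir5620 at the ion exchanger gene Clcn4.

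Several of the predicted miRNA models coincide with other genes. Genes with a Gm name, which are predicted models, were open at 65 of 134 near a TSS and 19 of 829 away from one, and genes with a Mir name at 86 of 285 and 40 of 803. Predicted models that overlap an exon of a histone gene numbered 20, of which 18 were open. Of the 19 miRNA genes that overlap an annotated snoRNA, 9 of them Gm models, 0 were open. The histone-overlapping models all lie near a TSS, where 36.3% of miRNA genes were open. Those that overlap a snoRNA lie partly away from one, where 3.67% were open, so these counts are not like for like. Peaks at the first kind cannot be told apart from those of the histone genes.

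The strongest regions away from any TSS were mixed in kind. The 8 highest-ranked genes had signals from 4.87 to 23.5 in replicate 1 and from 1.34 to 12.7 in replicate 2. Gm23935, a predicted model antisense to Zc3h7a, had 23.5 and 12.7 in replicates 1 and 2, which ranked 9 and 10 from the top among all 36132 shared regions. Gm47299, which overlaps the 7SL RNA gene Rn7s2 of the signal recognition particle, had 10.9 and 3.08. Mir132 had 6.79 and 2.54. The gene n-TStga1, annotated as a miRNA under a transfer RNA symbol, had 7.31 and 2.22, with 9 shared footprints. Mir9-3 followed with 4.87 and 2.15, and then Gm24159 in Gnao1, which encodes a G protein subunit abundant in neurons, Mir7001 in the tetraspanin gene Cd82 and Gm26469 between genes. The Gm23935 signal stood far above the rest in both libraries, and what underlies it was not tested. The sources used here name no treatment of repeated sequence, so this signal is not read as regulation of a miRNA gene.

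**Figure D3:**
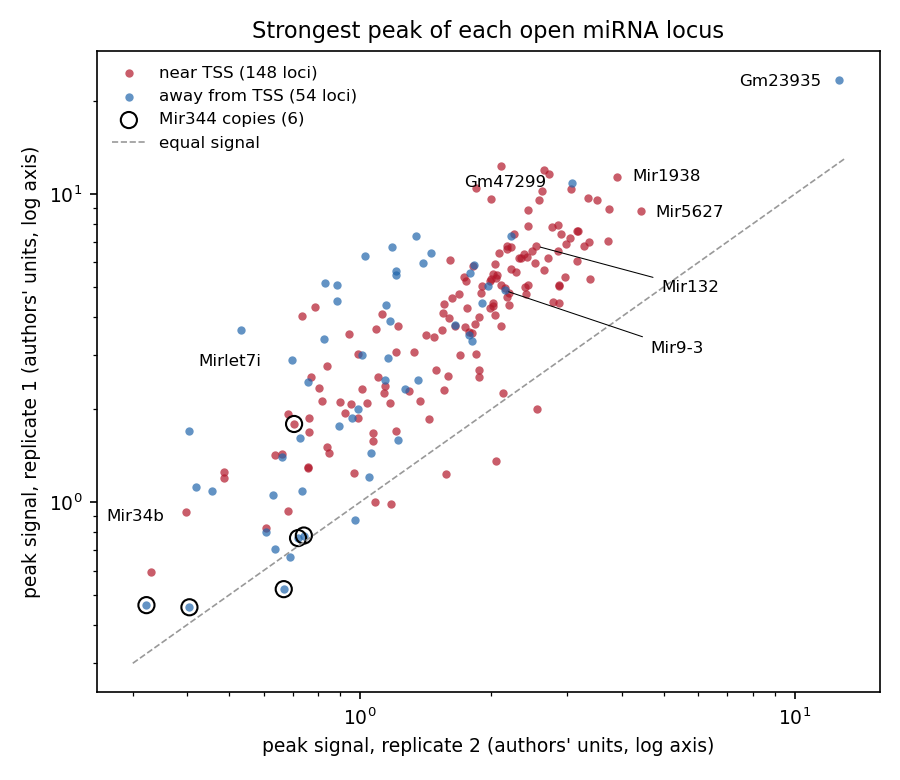
Deposited signal of the strongest peak in each of the 202 open miRNA loci, replicate 2 (horizontal, log axis) against replicate 1 (vertical, log axis), coloured by whether the first miRNA gene of the locus is near a TSS; rings mark the 6 open Mir344 copies, and the dashed line marks equal signal. Signal was higher in replicate 1 at 194 of 202 loci, Gm23935 lies apart at the upper right, and 5 of the 6 ringed copies lie close to the dashed line.

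Both libraries ranked the loci alike. Across the 202 open loci the Spearman correlation of the signals was 0.817, and across all 36132 shared regions 0.821. These are descriptions over loci of the same 2 libraries. The median log2 ratio of replicate 1 over replicate 2 was 1.21 at open miRNA loci and 1.19 over all shared regions, so the difference between libraries was general.

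Neuronal miRNA genes were open at 7 of 34, or 20.6%, against 10.4% of all miRNA genes. Near a TSS, where 36.3% of miRNA genes were open, lie 14 of the 34, against 421 of all 2054. The others lie where 3.67% were open, and the gap to 10.4% was not separated from position. Counted by locus, 6 of 33 were open, against 202 of 1777 over all miRNA loci. The list's median distance to the nearest shared region was 7675 bp, against 16200 bp over all miRNA genes. Among the genes of miR-9, which acts in neural progenitors and neurons, Mir9-3 had signals of 4.87 and 2.15 in replicates 1 and 2 and Mir9-2 had 2.57 and 1.60. The remaining copy, Mir9-1, had peaks in replicate 1 only, the strongest at 1.17, although the longer list of replicate 2 had one there. At 2 of 3 genes with this seed, then, both libraries had a peak.

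The genes of miR-124, a characteristic miRNA of mature neurons, differed among themselves. Mir124a-3 had 5.45 and 2.07 in replicates 1 and 2, with 4 shared footprints. Mir124a-1 had a peak in replicate 1 only, at 1.12, and so did Mir124a-2, at 0.772, where the longer list of replicate 2 had one of 0.42. The promoter of the lncRNA host of Mir124a-2 was open, at 1.08 and 0.615, and that of the host of Mir124a-1 had a peak in replicate 1 only.

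Both genes of miR-129, a miRNA of neurons, were open. Mir129-1 had 3.0 and 1.01 in replicates 1 and 2, and Mir129-2 had 2.33 and 1.27, with open promoters of the lncRNA hosts of both. Mir34b and Mir34c, of the p53-linked miR-34 family, shared 1 weak region of 0.927 and 0.398. In replicate 2 only, Mir128-2 had a peak of 0.645 and Mir137, a gene tied to neuronal development, one of 0.473. Mir128-2 lies 117 kb from the start of its host Arpp21, whose promoter was open at 3.04 and 1.22.

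Of the 22 neuronal genes that were not open and had a host on the same strand, 17 had a host with an open promoter. Over all miRNA genes of that kind away from a TSS the share was 82.8% for protein-coding hosts and 39.8% for lncRNA hosts, so nothing particular to the neuronal list is read from it. Host signals given here are the strongest within 500 bp of any start of the host. Mir128-1, 99.1 kb into R3hdm1, had a host promoter at 3.79 and 3.30 in replicates 1 and 2. Mir26a-2 in Ctdsp2 had one at 9.08 and 3.43, and Mir7-1 in Hnrnpk one at 8.47 and 3.24. The hosts Ctdsp2 and Ctdspl, together with Ctdsp1, encode phosphatases of RNA polymerase II, and all 3 had open promoters.

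Activity-regulated miRNA genes were open at 3 of 11, or 27.3%, against 10.4% of all miRNA genes and 36.3% of those near a TSS, where 5 of the 11 lie. Counted by locus, 2 of 7 were open. The windows of Mir132 and Mir212 shared the region printed above, and no peak of either library lay within 500 bp of the annotated start of their lncRNA host, 1700016P03Rik, which is 1.12 kb from Mir132. The hairpin of Mir132 lay under peaks of both libraries and that of Mir212 under a peak of replicate 1 only, 103 bp from the shared region. Mir191 had 4.63 and 2.18 in replicates 1 and 2 with 4 shared footprints. Its neighbour Mir425 had a peak in replicate 1 only, at 2.76, and so did Mir22, at 2.08, while the longer list of replicate 2 had peaks of 1.34 and 0.705 at these genes. The other 6 genes, among them Mir134, which acts in dendrites, belong to the imprinted cluster on chromosome 12 and had no peak.

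Motif letters were sought in the 200 bp around the centre of each shared region, on both strands. The cAMP response element TGACGTCA, the site of CREB, occurred in 3 of 63 regions of miRNA windows that were away from a TSS, or 4.76%, against 93 of 19967 such regions in all, or 0.466%. Near a TSS it occurred in 8 of 219, or 3.65%, against 2.89%. The 3 regions were those of Mir132 and Mir212, of Mir9-3, and of Gm47299 with its neighbour Gm47305. In the printed Mir132 region the element begins at base 66, on the 5′ side of the hairpin, and in the Mir9-3 region at base 116, and in neither does it touch a shared footprint. The Mir132 region also held the letters GCGTGGGCG of the Egr site on the strand opposite to the printed one. This match begins at printed base 175 and touches a shared footprint. With so few regions these matches are a description, and a match is not a bound site.

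Away from a TSS some promoter letters were more frequent in miRNA windows and others were not. The GC box GGGCGG occurred in 33.3% of the 63, against 9.42% of all such regions, and the ETS core CGGAAG in 9.52% against 4.77%. The CCAAT box occurred in 23.8% against 24.1%, the TATA box TATAAA in 4.76% against 6.96%, and the NRF1 core GCATGCGC in 0 of the 63 against 1.11%. The E-box CAGATG, read by neuronal bHLH factors, occurred in 14.3% against 25.3%. The median CpG ratio of the 63 regions was 0.521, against 0.272 for all regions away from a TSS. Near a TSS the GC box occurred in 56.6% of 219 regions against 52.0% of all, a smaller gap.

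Among the let-7, miR-125, miR-99 and miR-100 genes, which rise as neural cells mature, 2 of 16 were open, or 12.5%, against 10.4% of all miRNA genes. Mirlet7i, which lies outside any annotated host, had 2.90 and 0.698 in replicates 1 and 2, and Mir125b-1 had 1.70 and 1.21. Of the 14 that were not open all had a same-strand host, and for 12 of these genes the host promoter was open. Several of them share a host, so 12 counts genes and not separate promoters. The lncRNA Mir99ahg, host of Mirlet7c-1, Mir99a and Mir125b-2, had a promoter at 3.76 and 1.27, and 6720427I07Rik, host of Mirlet7a-1, Mirlet7d and Mirlet7f-1, one at 9.20 and 3.20. Of the 11 genes with the let-7 seed GAGGUAG that RefSeq gave a mature sequence for, Mirlet7i was the single open one.

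Lists typical of glia and vessels held 0 or 1 open gene each. In the oligodendrocyte list 1 of 8 was open, or 12.5%, against 10.4% of all miRNA genes, namely Mir219a-1, whose product promotes myelination, with 4.41 and 1.56 in replicates 1 and 2. It lies at the start of the lncRNA Gm26940, and its strongest region overlaps a protein-coding exon. In the astrocyte list 0 of 18 were open, and the longer lists added Mir181a-1 and Mir181b-1 with 1 region of 0.632 and 0.293. In the microglia and blood list 0 of 7 were open, and in the vascular list 1 of 10, Mir145a, a miRNA of smooth muscle cells, with 5.47 and 1.21. Of these lists, in the order given, 4, 6, 1 and 6 genes lie near a TSS, where 36.3% of miRNA genes were open. The rest lie where 3.67% were open. With so few genes nothing particular to glia or vessels is read from these counts.

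Genes known from other tissues or from proliferating progenitors had no peak in either stricter list. This held for 10 of striated muscle, 20 of liver, islet and epithelium, 12 of pluripotent cells, 6 linked to Hox clusters and 14 of proliferating progenitors. Near a TSS, where 36.3% of miRNA genes were open, lie 7 of the 14 progenitor genes, 3 of the 6 linked to Hox clusters and 2, 2 and 0 of the muscle, liver and pluripotent lists. The other genes lie where 3.67% were open, and with so few genes nothing particular to the lists is read from these zeros. The lists differed in their host promoters. Of the progenitor genes with a host on the same strand 13 of 13 had an open host promoter. For muscle this was 0 of 8, for liver 0 of 11 and for the Hox-linked genes 2 of 4. Several of these genes share a host, so genes and not separate promoters are counted. Of the 46 listed genes of the chromosome 12 imprinted cluster, in 11 loci, 0 had a peak even in the longer lists. Over all miRNA genes 1660 of 2054 had none there, and away from a TSS 1447 of 1633. Of the 46 genes 10 lie near a TSS, and neighbouring genes are not separate cases. Mir3072, at the end of the same run of genes but not in the list, was open with 2.54 and 1.10 in replicates 1 and 2. Of the 15 listed genes with a host on the same strand 13 had a host with an open promoter. That host was Mirg for all of them but Mir770, which lies in Meg3, so the same promoter is counted repeatedly. The Mirg signals equalled those of the Mir3072 region, which lies on the 3′ side of the listed Mirg hairpins, 4533 bp from Mir410. The largest run of miRNA genes, 119 in and around Sfmbt2 on chromosome 2, likewise had 0 with a peak in either longer list. Of the 119 genes 0 lie near a TSS. The sources used here name no treatment of repeated sequence, and nothing particular to either cluster is read from these zeros.

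**Figure D4:**
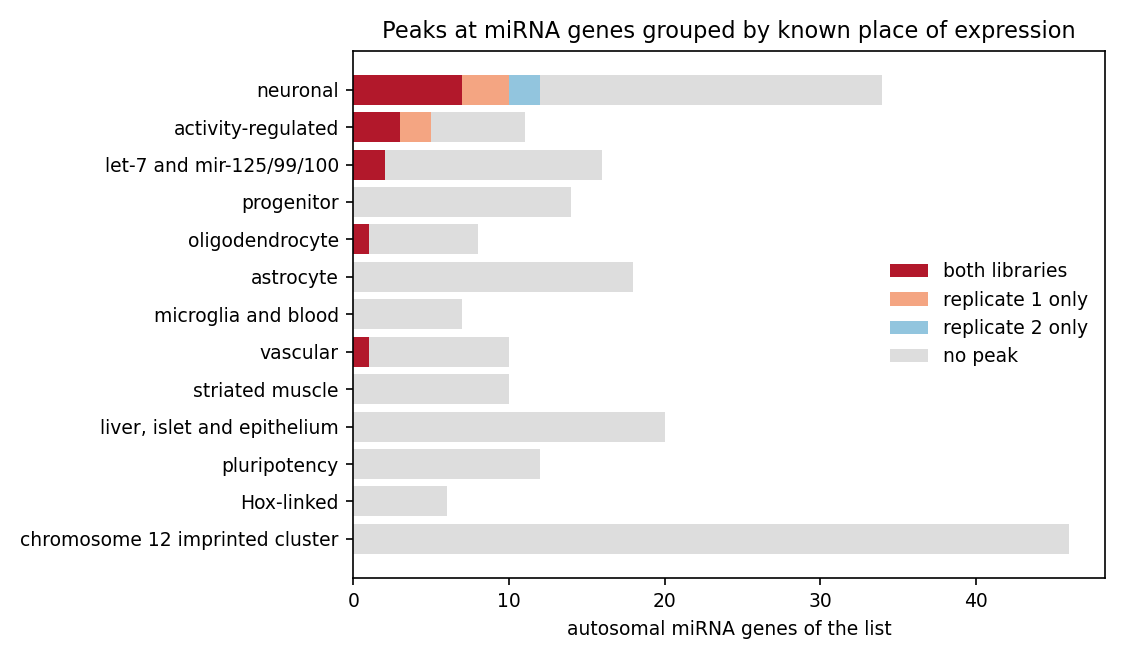
Number of autosomal miRNA genes per list (horizontal axis) with a peak of the stricter list in both libraries, in replicate 1 only, in replicate 2 only or in neither; some genes stand in more than 1 list. Peaks of both libraries occur at 7 of 34 neuronal and 3 of 11 activity-regulated genes, and 8 of the 13 lists have none.

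Away from any TSS the open genes came from all kinds of places. Outside genes 26 of 618 were open, or 4.21%, antisense to a gene 9 of 234, or 3.85%, within a lncRNA gene on the same strand 9 of 102, or 8.82%, and within a protein-coding gene on the same strand 16 of 679, or 2.36%. The lncRNA share includes 4 Mir344 copies and Mir132.

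Several known miRNA genes outside genes or antisense to them were among these 60, named here after their values were seen. Mir210, whose product is induced by hypoxia, had 3.75 and 1.66 in replicates 1 and 2 with 2 shared footprints. Mir7b, the open one of 3 genes with the seed GGAAGAC, had 5.13 and 0.833, also with 2 shared footprints. Mir193a had 4.49 and 0.885 and Mir187 had 3.40 and 0.825. Mir199a-1, the open one of 3 genes with the seed CAGUAGU and antisense to a gene, was weaker at 0.802 and 0.608. Each of them had a higher signal in replicate 1, as most loci did.

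The Mir344 array on chromosome 7 stood apart by position, and it was picked out after its values were seen. Its 13 copies are spread over 402 kb, from 61683124 to 62085310, on the minus strand, some inside the lncRNA A230057D06Rik and all but 1 away from any TSS. Peaks of both libraries lay at 6 copies, at 9 in the longer lists, and 4 copies had none in either stricter list. The centres of the 6 open regions lay 8.5 to 56.5 bp from the 5′ end of the hairpin, while among the other 206 open genes with overlapping peaks 21 had a centre within 60 bp.

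The mature 5′ arms of the array show how alike the copies are, with the seed in capitals.
mmu-miR-344-5p: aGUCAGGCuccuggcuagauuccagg
mmu-miR-344b-5p: aGUCAGGCuccuggcuaaaguuc
mmu-miR-344c-5p: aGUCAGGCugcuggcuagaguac
mmu-miR-344g-5p: aGUCAGGCuccuggcaggagu
mmu-miR-344f-5p: aGUCAGUCuccuggcuggaguc
mmu-miR-344d-1-5p: aGUCAGGCugcuggcuauacacca
The seed GUCAGGC occurred in 7 copies, 5 of them open, and Mir344f, the remaining open copy, carries another. The open regions of 2 copies show the surrounding DNA, where the hairpin takes bases 120 to 182 in Mir344b and 129 to 196 in Mir344f, and no shared footprint was found.
Mir344b region, chr7:61790440-61790700, minus strand: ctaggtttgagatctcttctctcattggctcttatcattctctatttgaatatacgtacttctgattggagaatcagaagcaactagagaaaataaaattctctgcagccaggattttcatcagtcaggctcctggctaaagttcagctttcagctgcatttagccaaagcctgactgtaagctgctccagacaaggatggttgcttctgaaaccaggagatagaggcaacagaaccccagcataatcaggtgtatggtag
Mir344f region, chr7:62046144-62046376, minus strand: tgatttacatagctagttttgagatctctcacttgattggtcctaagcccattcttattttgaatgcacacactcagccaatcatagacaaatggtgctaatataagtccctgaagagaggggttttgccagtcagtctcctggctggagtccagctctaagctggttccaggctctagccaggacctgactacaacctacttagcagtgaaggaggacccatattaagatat
The Mir344b region held 1 CpG dinucleotide and the Mir344f region 0.

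The signals of the array were low, and at 5 of the 6 open copies their balance between libraries was more even than at most loci. Mir344g, near the start of A330076H08Rik, had 1.79 and 0.705 in replicates 1 and 2. Mir344 had 0.779 and 0.743, Mir344-2 had 0.765 and 0.720, and Mir344c had 0.522 and 0.668. Mir344b had 0.456 and 0.405 and Mir344f 0.463 and 0.323. The median over all shared regions was 2.54 and 0.998, so the copies were weak in both libraries. The log2 ratio of replicate 1 over replicate 2 ranged from -0.35 to 1.3 with a median of 0.13, against 1.19 over all shared regions. The highest ratio is that of Mir344g, and weak loci elsewhere could also be balanced, as the values of Mir199a-1 given above show. A comparison with regions of equally low signal was not made.

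The windows of the array were poor in CpG, with ratios from 0.0249 to 0.171, which places it apart from most open genes. A shared footprint lay in the windows of 5 copies and on the hairpin of 4. In the 300 bp around the hairpins open copies were 72.3% to 87.5% identical in pairs, and over all 13 copies the range was 67.0% to 99.7%, the highest for Mir344h-1 and Mir344h-2, neither of which was open. How reads that fit several copies were placed is not given in the sources used here, and the effect of shared sequence on these peaks was not tested.

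**Figure D5:**
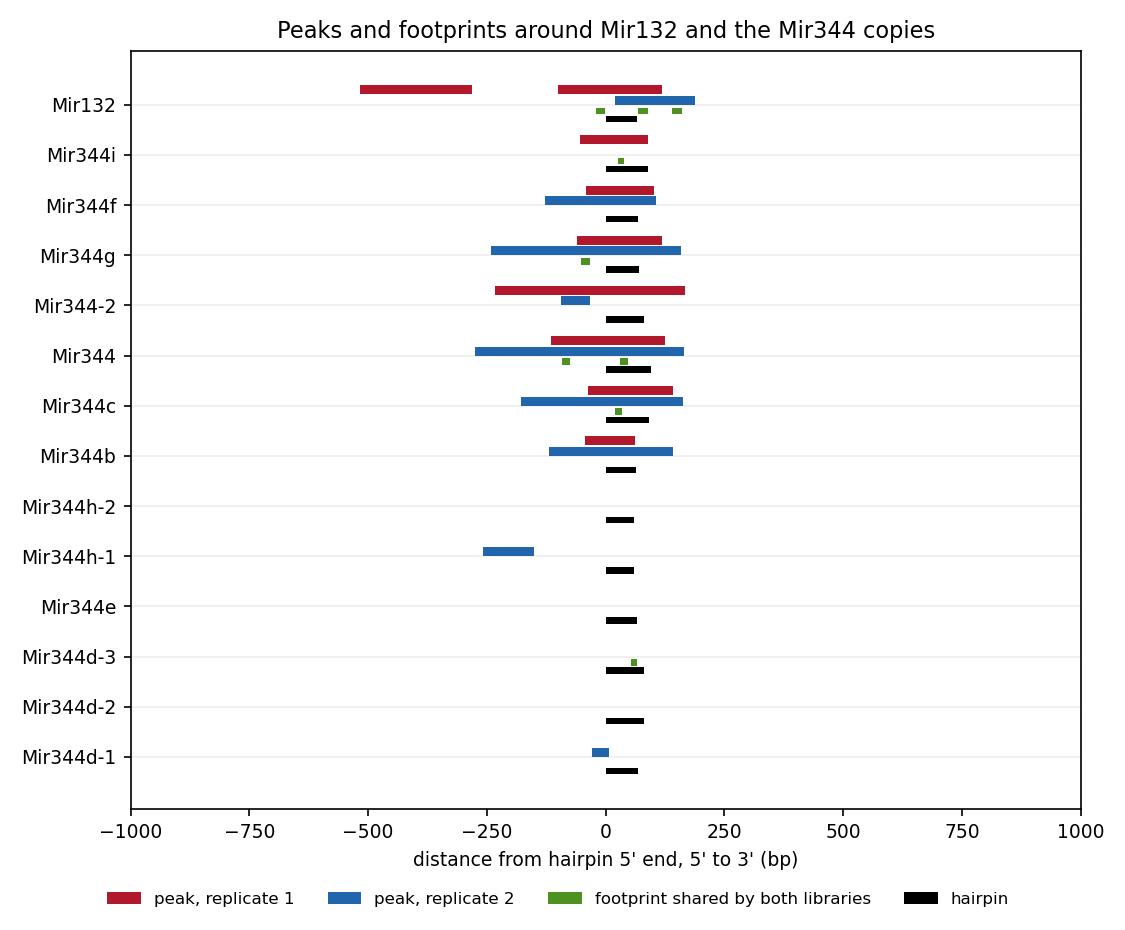
Peaks of replicate 1 (red) and replicate 2 (blue), footprints shared by both (green) and the hairpin (black) by distance in bp from the hairpin's 5′ end (horizontal axis, in the direction of the gene) for Mir132 and the 13 Mir344 copies. At Mir132 and at 5 of the 6 open Mir344 copies peaks of both libraries overlie the hairpin, and at Mir344-2 that of replicate 2 stops short of it.

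Away from any TSS the hairpin itself was touched by peaks of both libraries at 12 genes, of which 4 belonged to the Mir344 array. The others were Mir132, n-TStga1, Gm23935, Mir1983, Mir3086 in Hspa12a, Gm24270 in Peak1, Mir8120 and Mir1905. Mir1983 had 5.04 and 1.97 in replicates 1 and 2, and Mir3086 had 4.37 and 1.15. At 4 of the 12 genes a shared footprint touched the hairpin, namely Mir344, Mir344c, Mir1983 and n-TStga1.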

How the data were processed

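DNase-seq peaks, footprints and cut-rate values of 2 hippocampal libraries were analysed on mm10, the build that the submitters' processing notes and labels name. The authors deposited 2 peak lists per library, and the list with fewer peaks is the stricter one used throughout. The deposited signal value of each peak has no stated scaling. The deposited cut-rate values are p-values given as a false discovery rate. Tested on the files, every peak reached a rate of 0.001 or below in the stricter lists and of 0.05 or below in the longer ones. Deposited footprints carry a constant rate of 0.01. The sources used here name no aligner or peak caller and no treatment of repeated sequence, and depth is unknown.

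Genes came from GENCODE M21 and mature miRNA sequences from RefSeq on GRCm38.p6. Overlaps of 1 bp or more were computed with numpy 2.4.6, pandas 2.3.3 and pysam 0.24.0 under Python 3.11.15, and checked on simulated intervals. Cut-rate values were mapped with bedtools 2.31.1. Footprints were shared when they overlapped by 50% of the shorter one. Tiles with mostly unknown bases were left out. Named genes are the 8 near a TSS and the 8 away with the highest mean rank of signal, 1 per locus, the members of 13 lists, and members of small counts. Members and lists were chosen with earlier results of these data known. No test was made, since there is 1 group. List symbols without an autosomal gene of that name are not reported here. Single-library, peak-list, window, TSS and annotation alternatives were tried.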

Additional observations from a re-analysis of the deposited data

How the results depend on the processing

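The counts were recomputed 53 times under other settings, and 40 values stayed within a factor of 1.5. With 1 library in place of both, the counts ranged from 236 to 268 for open genes, 160 to 171 near a TSS, 76 to 97 away from one, 80 to 113 for the hairpin, 224 to 253 for loci and 268 to 322 for footprints. The hairpin count moved most, to 3 genes when peaks had to lie mostly on the hairpin. Peaks much wider than a hairpin cannot meet that rule wherever they lie, so this drop says little about position. The count away from a TSS was 104 in the longer lists, 38 with peaks at or above the median signal of each list, 37 with 500 bp on either side and 132 with 2 kb. Without predicted Gm models the counts were 129 open genes, 88 near a TSS, 43 with a peak on the hairpin, 124 loci and 124 with a shared footprint. The share near a TSS exceeded the share away under every definition of TSS tried, at 28.6% against 3.31% with a distance of 2 kb and 55.0% against 3.9% with basic transcripts. The cause of these shifts was not tested. Depth is unknown, so windows without a peak cannot be called closed. No paired analysis was possible because only 1 group exists.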
